A study of Bos taurus with 9 samples.

Results

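The genes described here make and finish collagen fibres: the collagen chaperone SERPINH1, the prolyl 4-hydroxylase alpha subunits P4HA1, P4HA2 and P4HA3, the lysyl hydroxylases PLOD1, PLOD2 and PLOD3, and the lysyl oxidases LOX, LOXL1 and LOXL2. They were chosen by symbol, with earlier results of these data known, and are 10 of the 22127 genes in the table. All 10 had counts in every library and passed the filter on low counts, which left 16469 genes to test. RNA sequencing was done on 9 libraries of cattle blastocysts at day 8, 3 for each medium in which the oocytes, inside their cumulus cells, had been matured for 24 hours. Glucose was at 5.5 mM in the control medium and at 2.75 mM in the low glucose medium, and the last medium combined 2.75 mM glucose with 1.8 mM BHB, an abbreviation the labels leave unexplained and which usually stands for the ketone body beta-hydroxybutyrate. All media contained serum, pyruvate, FSH and estradiol, and fertilisation and later culture did not differ by group. Each library pooled 9 to 11 embryos, so differences between single embryos are not visible. Whether replicates stem from separate cultures is not stated, so the p-values cover only the spread among these 9 libraries, which may be technical.

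Collagen chains are modified inside the endoplasmic reticulum before they are secreted. Prolyl 4-hydroxylases, which need oxygen, iron, 2-oxoglutarate and ascorbate, hydroxylate prolines so that the triple helix is stable at body temperature, and lysyl hydroxylases of the same enzyme class hydroxylate lysines that later carry sugars and crosslinks. SERPINH1, also called HSP47, binds the folded triple helix and escorts it towards the Golgi, and lysyl oxidases then act outside the cell, oxidising lysines so that neighbouring molecules become crosslinked. In the blastocyst, collagen IV and laminin build the basement membranes of trophectoderm and hypoblast, while fibrillar collagens are better known from connective tissue.

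Total estimated counts ran from 55611205 to 75178898 per library. Values below are TMM-scaled CPM, counts relative to library size. They compare 1 gene between libraries and not genes with each other, because transcript lengths were not used. Lineage genes of the blastocyst were present in every library: POU5F1 lay between 888 and 1101 CPM over the 9 libraries, CDX2 of the trophectoderm between 88.6 and 187 CPM, and GATA6 of the hypoblast between 467 and 758 CPM. In these pooled embryos, fewer cells of a type and less RNA per cell cannot be told apart.

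Blastocysts from low glucose medium held less SERPINH1, PLOD1 and PLOD2 than controls, by 2.61-fold, 2.96-fold and 4.91-fold, and blastocysts from low glucose medium with BHB also held less of them than controls, by 2.57-fold, 2.86-fold and 3.39-fold. None of the 10 genes rose. The remaining lysyl hydroxylase PLOD3, the prolyl hydroxylase P4HA2 and the lysyl oxidase LOXL2 stood near their control levels, with log2 fold changes between -0.14 and 0.21. P4HA1, P4HA3, LOX and LOXL1 had lower means than control in both media and did not pass the test. No gene of the group separated the low glucose media from each other.

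**Figure D1:**
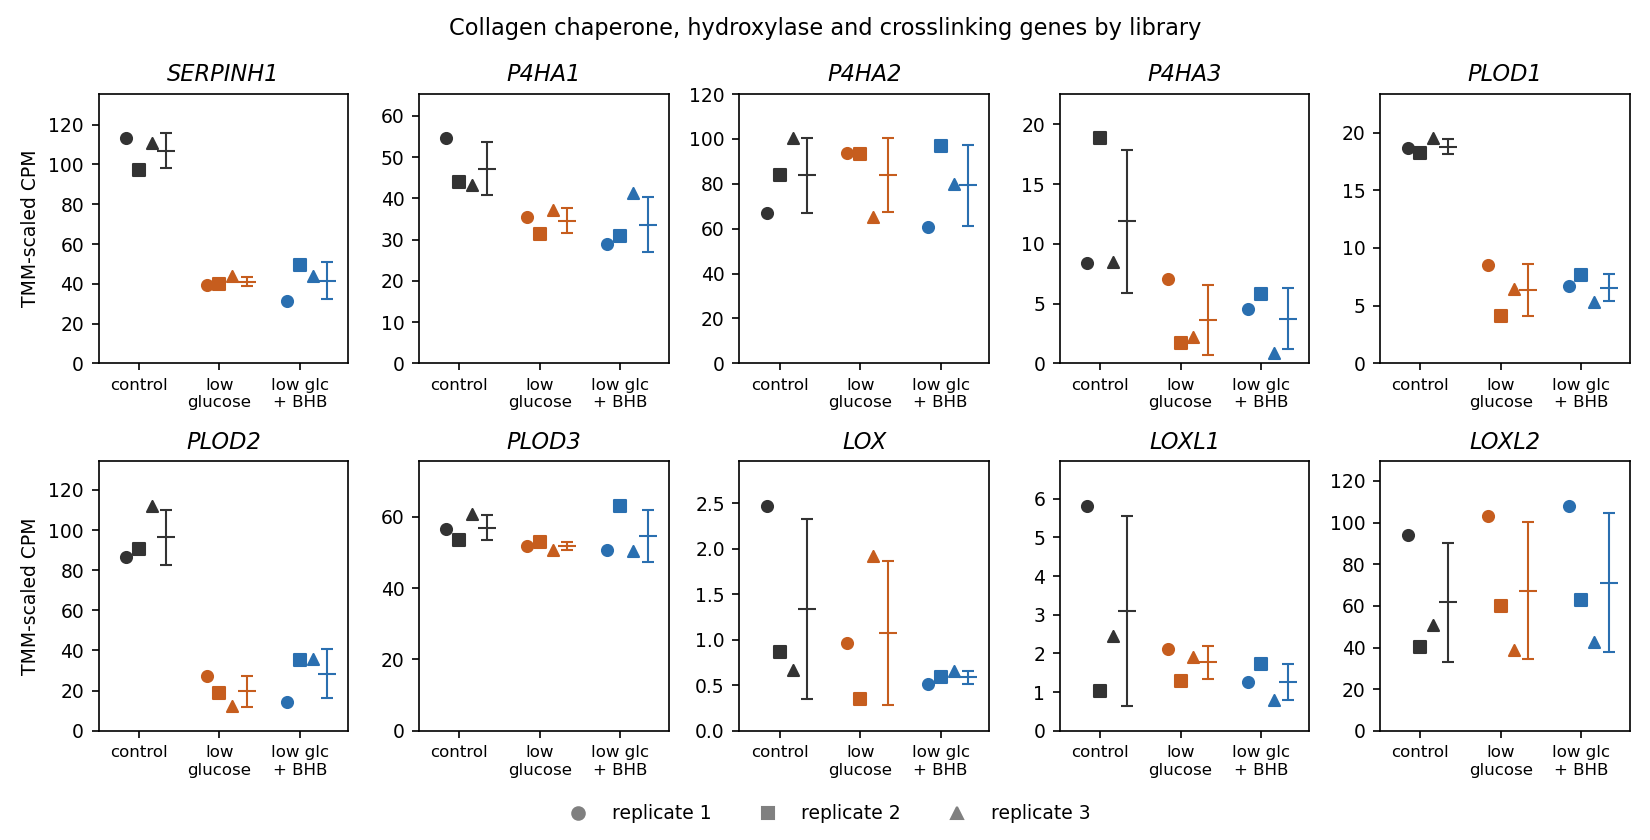
TMM-scaled CPM (linear axes from 0) of the 10 genes in each library, by maturation medium; marker shape gives the replicate number, and the bar beside each group its mean with the SD of 3 libraries. SERPINH1, PLOD1 and PLOD2 are higher in every control library than in any low glucose library, while LOXL2 is highest in replicate 1 of each medium.

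SERPINH1, the collagen-specific chaperone, was measured at 113, 97.1 and 111 CPM in control replicates 1, 2 and 3. In low glucose it stood at 39.6, 39.6 and 43.7 CPM, and with BHB at 31.6, 49.5 and 43.9 CPM. The lowest control library was thus well above the highest of the other 6, and the low glucose libraries lay within a few CPM of each other. The group means were 107 ± 8.67 CPM in control, 41.0 ± 2.36 CPM in low glucose and 41.6 ± 9.15 CPM with BHB (SD, n = 3 each). SERPINH1 changed by -1.39 on the log2 scale in low glucose (SE 0.157, edgeR adjusted p = 0.00110) and by -1.36 with BHB (SE 0.157, edgeR adjusted p = 0.00325). In all fits that left out 1 library it kept both calls.

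PLOD1 encodes the lysyl hydroxylase that acts on lysines within the triple helix. Its control libraries were tightly grouped at 18.7, 18.2 and 19.5 CPM. Low glucose libraries held 8.55, 4.07 and 6.46 CPM and those with BHB 6.73, 7.69 and 5.29 CPM, so that no library of either medium reached 9 CPM. The log2 fold change was -1.56 in low glucose (SE 0.255, edgeR adjusted p = 0.00637) and -1.51 with BHB (SE 0.254, edgeR adjusted p = 0.0120). With BHB the call was lost without control replicate 3 (-1.47, edgeR adjusted p = 0.0579) or BHB replicate 3 (-1.38, edgeR adjusted p = 0.0654), while in low glucose it was kept whichever library was left out.

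PLOD2 encodes the lysyl hydroxylase of the telopeptides, the ends of the collagen molecule from which hydroxylysine crosslinks form. Control libraries held 86.7, 90.5 and 112 CPM. The low glucose libraries held 27.5, 19.0 and 12.3 CPM, and those with BHB 14.2, 35.1 and 35.8 CPM. Control and treated libraries did not overlap, but the treated libraries varied more among themselves than those of SERPINH1 did, with a coefficient of variation of 38.9% in low glucose and 43.2% with BHB. PLOD2 changed by -2.30 in low glucose (SE 0.341, edgeR adjusted p = 0.00377), a call kept whichever library was left out, and by -1.76 with BHB (SE 0.335, edgeR adjusted p = 0.0218). The call with BHB was lost without control replicate 1 (-1.83, edgeR adjusted p = 0.0624), control replicate 2 (-1.81, adjusted p = 0.0518), control replicate 3 (-1.62, adjusted p = 0.103) or BHB replicate 3 (-1.96, adjusted p = 0.0523).

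PLOD3 encodes the lysyl hydroxylase that also transfers sugars to hydroxylysine. It varied least of the 10 genes over the libraries, 1.25-fold from the lowest to the highest. Its values were 56.7, 53.6 and 60.7 CPM in controls, 51.9, 53.0 and 50.7 CPM in low glucose and 50.6, 63.1 and 50.3 CPM with BHB. All low glucose libraries lay below all control libraries, by a small margin, whereas those with BHB overlapped the controls. The log2 fold change was -0.14 in low glucose (95% interval -0.40 to 0.13) and -0.06 with BHB (-0.33 to 0.21), neither past the test.

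Ratios of counts within a library do not depend on how libraries are scaled, and PLOD3 served as the denominator because of its even level, a choice made after its values were seen. The ratio of PLOD2 to PLOD3 counts ran from 1.53 to 1.85 in control, from 0.243 to 0.530 in low glucose and from 0.281 to 0.713 with BHB. That of PLOD1 to PLOD3 ran from 0.321 to 0.340 in control, from 0.0768 to 0.165 in low glucose and from 0.105 to 0.133 with BHB. Within the lysyl hydroxylases, the counts of PLOD1 and PLOD2 were thus lower against those of PLOD3 in every library of both low glucose media than in any control library. SERPINH1 to PLOD3 showed the same separation, at 1.81 to 2.00 in control against 0.748 to 0.862 in low glucose and 0.624 to 0.872 with BHB.

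The catalytic subunits of prolyl 4-hydroxylase are encoded by 3 genes, and none passed the test. P4HA1, the subunit of most cell types, was measured at 54.5, 44.0 and 43.2 CPM in controls, 35.4, 31.3 and 37.2 CPM in low glucose and 28.8, 30.8 and 41.3 CPM with BHB. Every treated library lay below every control library, with BHB replicate 3 just short of the lowest control. The log2 fold change was -0.45 in low glucose (SE 0.160, edgeR adjusted p = 0.349) and -0.49 with BHB (SE 0.161, edgeR adjusted p = 0.303), which is about 73.3% and 71.2% of the control level.

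P4HA2, the alternative subunit, overlapped fully between media. It was measured at 66.9, 84.0 and 100.2 CPM in controls, 93.8, 93.5 and 65.1 CPM in low glucose and 60.9, 97.0 and 80.1 CPM with BHB. Its log2 fold change was 0.01 in low glucose (95% interval -0.43 to 0.45) and -0.08 with BHB (-0.52 to 0.36). In RefSeq's annotation of the ARS-UCD2.0 assembly, used here for gene neighbourhood alone, P4HA2 overlaps PDLIM4, and the labels do not say that the libraries kept strand. PDLIM4 did not pass either, at 283 ± 86.9 CPM in control, 337 ± 42.1 CPM in low glucose and 348 ± 63.8 CPM with BHB.

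P4HA3, the subunit known for low and restricted expression, had the widest range of the 10 genes, 22.0-fold over the libraries. Control libraries held 8.42, 18.8 and 8.49 CPM. Low glucose libraries held 7.03, 1.69 and 2.17 CPM and those with BHB 4.51, 5.78 and 0.855 CPM. Although no treated library reached the lowest control, replicates of 1 medium differed by several fold, and the log2 fold changes of -1.71 (SE 0.653, edgeR adjusted p = 0.428) and -1.68 (SE 0.652, edgeR adjusted p = 0.509) did not pass. Without control replicate 2 they stood at -1.22 and -1.18. P4HA3 overlaps PPME1 in the same annotation, and PPME1 stood at 45.3 ± 2.64 CPM in control, 40.6 ± 0.986 CPM in low glucose and 43.2 ± 0.959 CPM with BHB.

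The beta subunit shared by these enzymes, P4HB, which is also the protein disulfide isomerase of the endoplasmic reticulum, was picked with its values known. It stood at 725 CPM in control, 783 CPM in low glucose and 760 CPM with BHB, with log2 fold changes of 0.11 and 0.07 that did not pass.

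LOX, LOXL1 and LOXL2, lysyl oxidases that act on collagen outside the cell, showed no call in any comparison. LOX, the founding member of the family, had few counts, between 25 and 147 in a library. It stood at 2.47, 0.864 and 0.669 CPM in controls, 0.962, 0.352 and 1.92 CPM in low glucose and 0.509, 0.594 and 0.655 CPM with BHB. Control replicate 1 and low glucose replicate 3 stood above the rest, and the BHB libraries lay just below the lowest control. The log2 fold change of LOX was -0.31 in low glucose (95% interval -1.74 to 1.12) and -1.18 with BHB (-2.64 to 0.27). Without control replicate 1 it was 0.49 in low glucose and -0.39 with BHB.

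LOXL1, the family member tied to elastic fibres, was measured at 5.82, 1.03 and 2.45 CPM in controls, 2.12, 1.30 and 1.90 CPM in low glucose and 1.26, 1.73 and 0.800 CPM with BHB. Again control replicate 1 was the highest library, and the groups overlapped. Its log2 fold changes of -0.80 (SE 0.542) and -1.29 (SE 0.549) became 0.03 and -0.46 without that library.

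LOXL2, an oxidase that crosslinks collagen IV, was highest in replicate 1 of each medium. Replicate 1 held 94.2 CPM in control, 103 CPM in low glucose and 108 CPM with BHB. Replicates 2 and 3 held 40.2 and 51.0 CPM among the controls, 60.1 and 38.6 CPM among the low glucose libraries and 62.8 and 42.8 CPM among those with BHB. Each replicate 1 library thus lay above all 6 libraries of replicates 2 and 3, and the media overlapped. Its log2 fold change was 0.13 in low glucose (SE 0.401) and 0.21 with BHB (SE 0.401), and with the replicate number as a block it was 0.09 (SE 0.168) and 0.18 (SE 0.168). What the replicate number stands for is not given in the labels.

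In low glucose against control, 3 of the 10 genes were lower and 0 higher at an edgeR adjusted p under 0.05, where 2.02% of all tested genes were lower and 0.00607% higher. Counted by libraries, 6 of the 10 (SERPINH1, P4HA1, P4HA3, PLOD1, PLOD2 and PLOD3) had all low glucose libraries below all controls, against 8.85% of all tested genes. The median log2 fold change of the 10 genes was -0.63, beside 0.02 over all tested genes. Because the 10 were chosen with earlier results of these data known, such contrasts, here and with BHB, are descriptive only.

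With BHB against control, 3 of the 10 were lower and 0 higher, where 1.38% of all tested genes were lower and 0.00607% higher. That count rests on single libraries: it was 2, SERPINH1 and PLOD1, without control replicate 1 or 2, and 1, SERPINH1, without control replicate 3 or BHB replicate 3. Again 6 of the 10 (SERPINH1, P4HA1, P4HA3, PLOD1, PLOD2 and LOX) had all BHB libraries below all controls, against 8.56% of all tested genes, and the median was -1.24, beside 0.01 over all tested genes. The comparisons with control share the same 3 control libraries, so their values stand side by side and do not support each other.

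**Figure D2:**
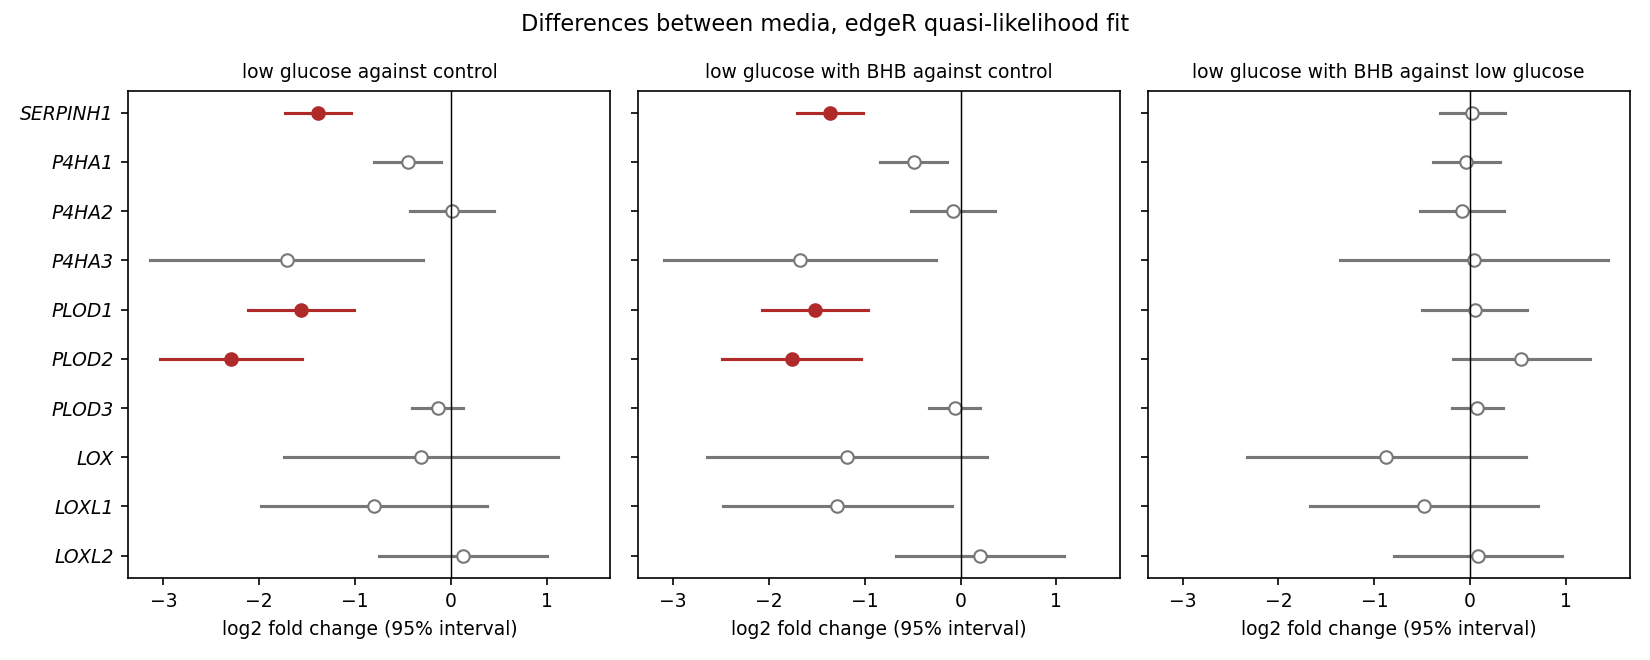
Log2 fold change with its 95% interval for each of the 10 genes in the 3 comparisons, from edgeR's quasi-likelihood fit; filled red points passed an adjusted p under 0.05. SERPINH1, PLOD1 and PLOD2 pass against control in both media, and every interval between the low glucose media spans 0.

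The BHB supplement itself was tested between the low glucose media, and 0 of the 10 genes passed in edgeR, as did 0% of all tested genes. At an unadjusted p under 0.05 the count among the 10 was also 0, against 0.589% lower and 1.05% higher over all tested genes, and neither DESeq2 nor limma-voom called any of the 10. The difference for SERPINH1 was 0.02 on the log2 scale with a 95% interval from -0.31 to 0.36, and for PLOD3 0.08 with an interval from -0.19 to 0.34. For PLOD1 it was 0.05, with an interval from -0.50 to 0.60. PLOD2 stood higher with BHB by 0.53, with an interval from -0.18 to 1.25 that admits a rise of more than 2-fold. The intervals of P4HA3 (-1.36 to 1.44) and LOX (-2.33 to 0.58) were wider still, so changes of that size were not detectable with 3 libraries a medium.

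**Figure D3:**
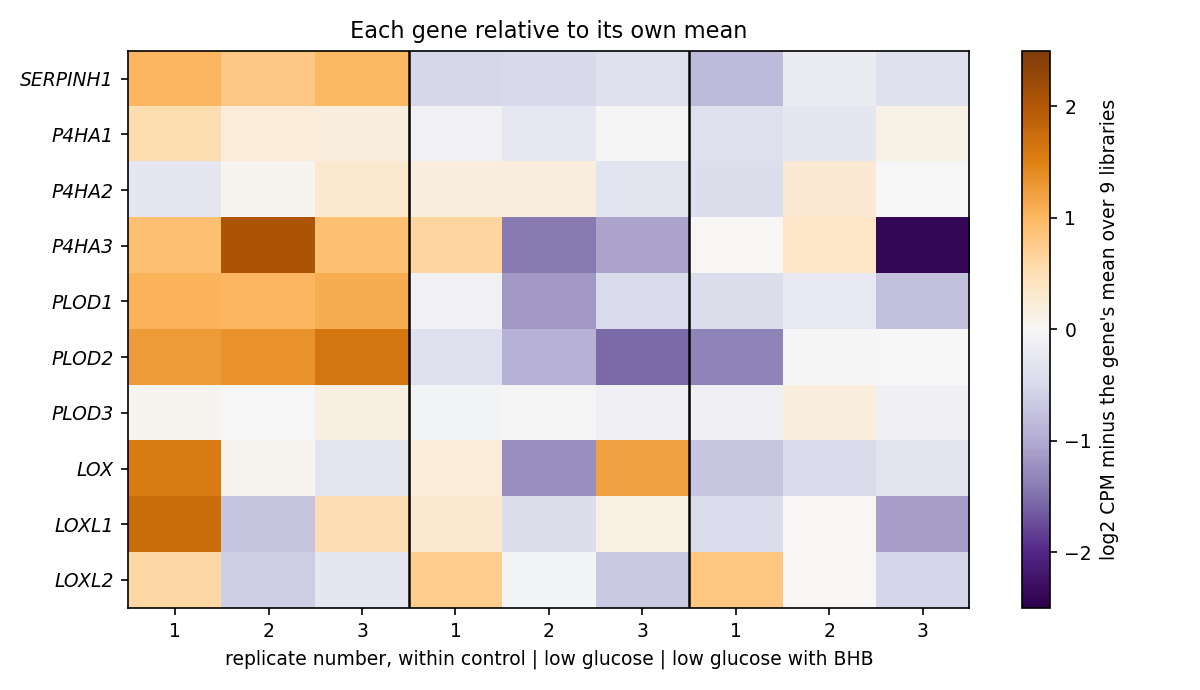
Log2 CPM of each gene minus its own mean over the 9 libraries, in colour (orange higher, purple lower), with columns for replicates 1 to 3 of control, low glucose and low glucose with BHB. The control columns are orange for SERPINH1, PLOD1, PLOD2 and P4HA3, PLOD3 is near white throughout, and LOXL2 is orange in replicate 1 of every medium.

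Across libraries, SERPINH1 and PLOD1 resembled each other more than either resembled most other genes. Likeness was measured as the root mean square difference in log2 CPM (prior count 2) over the 9 libraries after each gene was centred on its mean, among 15144 other tested genes with a symbol. PLOD1 was the 95th closest gene to SERPINH1, at 0.335, and SERPINH1 the 26th closest to PLOD1. PLOD2 ranked 795th from SERPINH1 at 0.556, P4HA1 369th at 0.466 and LOXL2 12602nd at 0.963. The closest genes to SERPINH1 were ORMDL3, a regulator of sphingolipid synthesis, at 0.141, TAPBP, the peptide-loading chaperone tapasin, at 0.144, and TSPO, a protein of the outer mitochondrial membrane, at 0.160. Nearest to PLOD1 were CASQ1, a calcium-binding protein, at 0.178, the protocadherin gene PCDH7 at 0.185 and the malic enzyme gene ME1 at 0.229. Nearest to PLOD2 were the transcriptional repressor gene BCL6 at 0.180, HHIPL1 at 0.208 and MAGED4B at 0.216. These ranks describe 9 libraries in 3 groups, and a gene that is high in the controls ranks near any other such gene.

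Other genes of collagen folding, modification and processing moved in part. Of 24 listed, 23 were tested, and 3 were lower in low glucose and 2 with BHB, with medians of -0.33 and -0.34. For this list and those below, the shares of all tested genes called lower were 2.02% in low glucose and 1.38% with BHB. FKBP10, a prolyl isomerase of the endoplasmic reticulum that works with the PLOD2 enzyme, fell from 20.4 ± 2.81 CPM in control to 6.41 ± 0.510 CPM in low glucose and 8.00 ± 1.05 CPM with BHB, log2 fold changes of -1.67 (edgeR adjusted p = 0.000980) and -1.35 (edgeR adjusted p = 0.00420). BMP1, the protease that removes the C-terminal propeptide of procollagens and activates LOX, fell from 19.2 ± 6.38 to 3.81 ± 0.716 and 4.48 ± 1.27 CPM. Its log2 fold changes were -2.33 and -2.10. P3H3, a prolyl 3-hydroxylase family member that forms a complex with the PLOD1 enzyme, fell from 20.2 ± 2.66 to 9.53 ± 1.27 CPM in low glucose (-1.08, edgeR adjusted p = 0.00826) and stood at -0.73 with BHB (edgeR adjusted p = 0.0954). The calls of FKBP10, BMP1 and P3H3 were kept whichever library was left out. Counted by libraries, 8 of the 23 had all low glucose libraries below all controls and 10 had all BHB libraries below. Over all tested genes these shares were 8.85% and 8.56%. Of these 8 and 10 genes, 5 and 8 did not pass the test. Among them, named after their values were seen, was P3H1, the enzyme of the prolyl 3-hydroxylase complex, at 23.6 to 28.2 CPM in control, 13.0 to 16.1 CPM in low glucose and 8.60 to 17.5 CPM with BHB (-0.82 and -0.99, edgeR adjusted p = 0.122 and 0.0617). The partners of P3H1 in that complex, PPIB and CRTAP, overlapped between media and stood at 0.09 and 0.02 in low glucose and at 0.13 and 0.12 with BHB. The prolyl isomerase gene FKBP14 (-0.84 and -0.96) and the procollagen proteinase enhancer gene PCOLCE2 (-1.81 and -1.73) had all libraries of both media below the controls without passing, whereas COLGALT1, which adds galactose to hydroxylysine, stood at 0.06 and -0.01. The lysyl oxidase gene LOXL3 also lay below all controls in both media without passing. It held 9.12 to 10.55 CPM in control, 3.09 to 6.59 CPM in low glucose and 1.87 to 9.08 CPM with BHB. LOXL4, of the same family, overlapped between media.

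Among the collagens that these enzymes modify, calls lay in fibrillar chains and in collagen VI. Of 10 tested fibrillar chains, 3 were lower in low glucose and 3 with BHB, with medians of -1.02 and -1.09. COL5A1 fell to 9.82 ± 6.18 CPM in low glucose and 13.6 ± 4.94 CPM with BHB from 76.7 ± 8.33 CPM in control. COL5A2, its partner chain in collagen V, fell from 21.2 ± 6.07 to 4.16 ± 2.34 and 4.83 ± 1.03 CPM, and the call with BHB (-2.14) was lost without control replicate 1 (-1.88), or without replicate 1 (-1.97) or 3 (-2.19) of the BHB medium. COL11A1 changed by -2.58 in low glucose, a call lost without control replicate 1 (-2.40) or 2 (-2.56) or low glucose replicate 1 (-2.66), 2 (-2.66) or 3 (-2.41). COL3A1 changed by -2.21 with BHB, a call lost without control replicate 1 (-1.97), 2 (-2.22) or 3 (-2.39) or BHB replicate 1 (-2.07) or 3 (-2.14). The collagen I genes COL1A1 and COL1A2, picked with their values known, missed the threshold, at -0.70 and -1.34 in low glucose and -0.89 and -1.29 with BHB. The values of COL1A1 rest on control replicate 1, at 323 CPM against 106 and 101 CPM in the other controls, and without that library they were 0.07 and -0.12. COL1A2 lay close to the threshold in low glucose (edgeR adjusted p = 0.0511), had all libraries of both media below all controls, and stood at -0.95 and -0.91 without control replicate 1. In low glucose it passed in each fit that left out a BHB library, and with BHB without BHB replicate 1 (-1.63). It did not pass in the other fits that left out 1 library.

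Basement membrane collagens, the class best known from the early embryo, had 0 of 8 genes past the edgeR threshold in either medium, with medians of -0.47 and -0.45. COL4A1 stood at 407 ± 18.4 CPM in control, 429 ± 58.0 CPM in low glucose and 415 ± 121 CPM with BHB. COL4A2 stood at 178 ± 14.0, 209 ± 48.3 and 181 ± 64.4 CPM, and COL18A1 at 81.6 ± 20.9, 84.2 ± 21.6 and 80.0 ± 47.7 CPM. These are the most abundant chains of the class, and less abundant ones stood lower. In each medium 3 of the 8 chains had all libraries below all controls, among them COL4A5, at 7.04 to 8.81 CPM in control, 3.20 to 6.19 CPM in low glucose and 3.17 to 3.94 CPM with BHB (-0.85 and -1.07), and COL4A4, at 0.605 to 0.966, 0.0916 to 0.169 and 0.148 to 0.364 CPM (-2.52 and -1.57). The others were COL4A6 in low glucose (-1.19) and COL4A3 with BHB (-1.65). Over all tested genes, 8.85% in low glucose and 8.56% with BHB had all libraries below all controls. Of 10 other tested collagen chains, 2 were lower in low glucose and 0 with BHB. COL6A1 and COL6A2, chains of the microfibrillar collagen VI, changed by -1.72 and -1.74. Those calls were lost without control replicate 1 (-1.31 and -1.30) or low glucose replicate 2 (-1.45 and -1.48), that of COL6A1 also without control replicate 3 (-1.78) or low glucose replicate 1 (-1.74), and that of COL6A2 also without low glucose replicate 3 (-1.84).

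**Figure D4:**
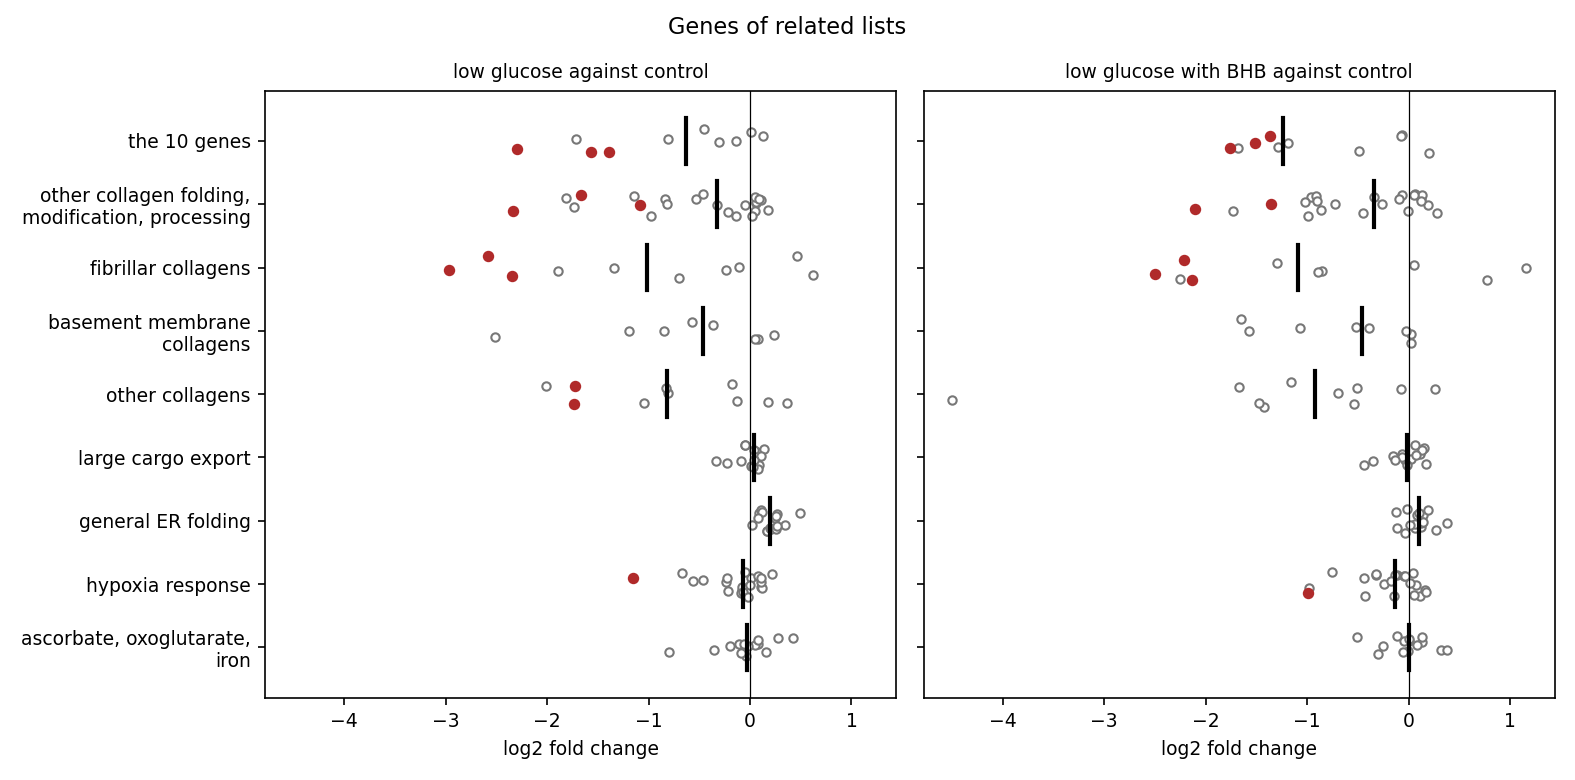
Log2 fold changes of the 10 genes and of related lists in low glucose and in low glucose with BHB, each against control; a point is a tested gene, filled red if past an edgeR adjusted p under 0.05, and the black bar is the list's median. Calls lie among the 10 genes, the fibrillar and other collagens, the processing genes and, as HIF1A, the hypoxia list, whereas export and general folding genes cluster near 0.

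No general folding or export gene of the endoplasmic reticulum passed the edgeR test against control. Of 17 tested folding genes 0 passed, with medians of 0.20 in low glucose and 0.11 with BHB, and of 15 genes for export of large cargo such as procollagen 0 passed, with medians of 0.04 and -0.01. Counted by libraries in low glucose, 3 of the 17 folding genes, CALR, PDIA4 and CRELD2, lay above all controls and 0 below. With BHB 0 lay above and 0 below. The share of all tested genes above all controls is not given here for any list. Whether such counts are unusual was not tested. PDIA4 lay at 110 to 128 CPM in control and 134 to 150 CPM in low glucose, and CRELD2 at 45.0 to 65.6 and 72.1 to 85.2 CPM. The lectin chaperone CALR stood at 784 ± 26.5 CPM in control, 904 ± 80.4 CPM in low glucose and 861 ± 231 CPM with BHB, and the coat gene SEC24C at 171 ± 5.76, 165 ± 6.67 and 167 ± 17.6 CPM. CANX and PDIA3, further folding genes, stood at 0.08 and 0.12 in low glucose, and the coat genes SEC13 and SEC23B at 0.13 and 0.06.

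Hydroxylases depend on oxygen, iron and 2-oxoglutarate, and P4HA1, P4HA2, PLOD2 and LOX are known targets of the hypoxia-inducible factor HIF1A. Of 21 hypoxia response genes, 1 was lower in each comparison with control, HIF1A itself, with list medians of -0.07 and -0.13. Counted by libraries, 5 of the 21 lay below all controls in low glucose and 4 with BHB, against 8.85% and 8.56% of all tested genes, and 0 lay above. In low glucose these were HIF1A, EGLN3, PGK1, BNIP3L and ADM, and with BHB the same genes except ADM. HIF1A fell from 93.0 ± 14.5 CPM in control to 41.9 ± 4.64 CPM in low glucose (-1.15, edgeR adjusted p = 0.00505) and 46.8 ± 10.8 CPM with BHB (-0.99, edgeR adjusted p = 0.0180). The call with BHB was lost without control replicate 2 (-0.88) or 3 (-0.96) or BHB replicate 3 (-1.05). Of 14 listed genes of ascorbate and oxoglutarate enzymes and iron supply 0 passed, with medians of -0.03 and 0.0005. The list mixes enzymes such as TET1, TET2 and TET3 with transport and iron genes, so its median does not measure cofactor supply. In each medium 1 of the 14, the iron gene SLC40A1, lay below all controls, against 8.85% and 8.56% of all tested genes. The ferritin gene FTH1 stood at 2008 ± 160 CPM in control against 2120 ± 47.3 CPM in low glucose. FTL and IDH1, which make ferritin light chain and cytosolic 2-oxoglutarate, stood at 0.16 and -0.04 in low glucose.

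Some listed markers of connective tissue and cumulus cells were lower along with these genes, and others were not. Of 11 tested markers of fibroblasts or stromal cells, 4 were lower in low glucose and 5 with BHB, with medians of -1.70 and -1.61. Counted by libraries, 8 of the 11 lay below all controls in each medium, against 8.85% and 8.56% of all tested genes. PDGFRA, ACTA2 and COL1A1 overlapped. PDGFRA lay at 129 to 154 CPM in control, 134 to 177 CPM in low glucose and 114 to 161 CPM with BHB. The summed level of the stromal list ran from 657 to 1313 CPM in control, from 381 to 549 CPM in low glucose and from 331 to 533 CPM with BHB, so neither medium overlapped the controls. That sum holds markers that passed the test and the collagen I genes, so it partly restates their values. Control replicate 1 was the 1313 CPM, against 697 and 657 CPM in the other controls. The markers past the threshold in both media were LUM and DCN, proteoglycans of the collagen matrix, the growth factor receptor gene PDGFRB and the actin-binding gene TAGLN, and with BHB also COL3A1. LUM lay at 88.1 to 204 CPM in control, 5.34 to 23.8 CPM in low glucose and 12.1 to 12.4 CPM with BHB. PDGFRB lay at 11.6 to 16.9, 1.93 to 3.65 and 1.87 to 4.35 CPM, and DCN at 7.11 to 13.8, 1.58 to 3.22 and 1.22 to 2.25 CPM. The calls of LUM, PDGFRB and DCN were kept whichever library was left out, and those of TAGLN (-1.70 and -1.61) were lost without control replicate 1 (-1.47 and -1.38) or 3 (-1.68 and -1.59), low glucose replicate 2 (-1.48) or 3 (-1.61), or BHB replicate 1 (-1.57) or 3 (-1.36). FAP, a gene of activated fibroblasts, was at 0 in 8 of the 9 libraries. Of 23 cumulus and granulosa markers, 6 and 5 were lower, with medians of -1.09 and -0.87. Counted by libraries, 11 of the 23 lay below all controls in low glucose and 7 with BHB, beside the same shares of all tested genes. The other markers overlapped. Among those that overlapped in both media were FSHR, CYP19A1 and HSD3B1. CYP19A1 lay at 17.1 to 28.7 CPM in control, 18.4 to 20.7 CPM in low glucose and 18.4 to 27.9 CPM with BHB. LUM and DCN, which both lists hold, the matrix proteoglycan gene VCAN and the nuclear receptor genes NR5A1 and NR5A2 were lower in both, and the BMP antagonist gene GREM1 in low glucose. The call of VCAN in low glucose (-2.55) was lost without low glucose replicate 3 (-2.27), and that of GREM1 without control replicate 2 (-2.34) or 3 (-2.43) or any low glucose library (-2.72 to -2.25). With BHB, NR5A1 (-1.95) lost its call without control replicate 3 (-1.80) or BHB replicate 3 (-1.90), and NR5A2 (-1.37) without control replicate 1 (-1.25) or 3 (-1.42) or BHB replicate 1 (-1.25) or 3 (-1.27). The summed level overlapped, at 850 to 984 CPM in control, 538 to 1272 CPM in low glucose and 610 to 1164 CPM with BHB. PTGS2, a gene also listed for the trophectoderm, held 355 to 544 CPM in control, 414 to 1011 CPM in low glucose and 464 to 928 CPM with BHB. Without PTGS2, left out after its values were seen, the sum did not overlap the controls, at 395 to 508, 124 to 261 and 145 to 237 CPM. That remainder holds LUM and VCAN, which had passed the test, so it partly restates their calls. VCAN lay at 73.4 to 76.4 CPM in control and 5.50 to 25.5 CPM in low glucose. INHA was at 0 in 4 libraries. Of 16 tested hypoblast markers 1, GATA4, was lower in each medium (-1.45 and -1.13), with BHB a call lost without any control library (-1.22 to -0.98), low glucose replicate 3 (-1.13), or BHB replicate 1 (-0.94) or 3 (-1.05), and of 15 trophectoderm and 11 epiblast markers 0 passed in edgeR. In each medium 2 of the 15 trophectoderm markers had all libraries above all controls, and 0 below. These were GATA3 and CLDN7 in low glucose and CLDN4 and CLDN7 with BHB. Of the 11 epiblast markers 1, POU5F1, lay above all controls with BHB, 0 in low glucose and 0 below in either. Summed epiblast markers lay at 1649 to 1798 CPM in control, 1690 to 2072 CPM in low glucose and 1888 to 2040 CPM with BHB. The trophectoderm sums overlapped. Summed hypoblast markers lay at 8239 to 8518 CPM in control, 9109 to 9776 CPM in low glucose and 7092 to 9625 CPM with BHB. Every low glucose library thus lay above the controls. The fibronectin gene FN1 alone held 4743 to 5308 CPM, 6055 to 6612 CPM and 4227 to 6146 CPM of these sums. Without FN1, left out after its values were seen, the remaining markers summed to 3210 to 3553 CPM in control, 2826 to 3185 CPM in low glucose and 2866 to 3478 CPM with BHB. Every low glucose library then lay below the controls, so the direction of the sum depended on FN1. Counted by libraries in low glucose, 2 of the 16 tested markers, GATA4 and SPARC, lay below all controls, against 8.85% of all tested genes. Above all controls lay 1, FN1. The part of other cell types in the lower levels of SERPINH1, PLOD1 and PLOD2 was not tested.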

How the data were processed

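Polyadenylated RNA from pooled blastocysts was sequenced after library preparation with a NEBNext Ultra II kit, per the labels' protocols. The authors deposited estimated counts per gene, unscaled. The tools named, per the submitters' processing notes, are kallisto, fastp and DESeq2, with build bosTau9; their versions and roles, and the annotation, are nowhere given in the sources used here. Reads that fit several similar transcripts are shared by kallisto. The table gives no coordinates.

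Estimated counts were rounded and all 9 libraries fitted with 3 group means by edgeR 4.0.16 (R 4.3.3) after filterByExpr (minimum count 10, total 15) and TMM scaling, with two-sided quasi-likelihood tests and Benjamini-Hochberg adjustment over 16469 genes (threshold 0.05). Each standard error is the fold change divided by the root of its F statistic, and intervals cover 95%. Alternatives were RLE factors, no filter, a mean count of at least 50, a replicate block, DESeq2 1.42.0, limma-voom (limma 3.58.1), fits of only the 6 libraries in a comparison and fits without each library. The steps were tested on simulated data.

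The 10 genes and all lists were chosen with earlier results of these data known. By rule, named genes were the 10, every gene past the threshold of the lists other than cell type markers, the 3 most abundant genes of such lists with none, and the 3 nearest genes to each of the 10 that passed. All other genes, cell type markers and collagen I among them, were named after their values were seen. Replicates differed by more than sampling noise in every pair (chi-square per degree of freedom at least 39.2). Deviations from group means correlated between same-numbered libraries of the low glucose media at 0.115, 0.243 and 0.102, all over 0.1. Differently numbered libraries were not correlated, so these values do not settle whether the numbers pair samples, and the labels are silent. The main fit did not pair them.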

Additional observations from a re-analysis of the deposited data

How the results depend on the processing

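The calls of SERPINH1 in both comparisons with control, and of PLOD1 and PLOD2 in low glucose, held under all 16 alternatives, with log2 fold changes from -1.45 to -1.34 and -1.51 to -1.20 for SERPINH1, -1.82 to -1.31 for PLOD1 and -2.60 to -2.05 for PLOD2. The number of the 10 genes past the threshold stayed at 3 in low glucose and 0 between the low glucose media under each, and with BHB it ran from 1 to 3 over the 9 fits that each left out 1 library and was 3 under the others. DESeq2 called 548 genes lower and 9 higher in low glucose and 412 lower and 8 higher with BHB, over 1.5 times edgeR's 333 and 227. Leaving out a library gave 194 to 391 lower genes in low glucose and 90 to 256 with BHB. With the replicate number as a block, the same 3 genes passed in each comparison with control and 0 between the low glucose media. Against control, same-numbered libraries correlated at 0.0417 to 0.144, and whether the numbers pair those samples was likewise not settled.

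Among 384 values that had not passed, 32 changed sign, all near 0 or with wide intervals, and none passed. In low glucose against control, P4HA2 turned to -0.0015 with a mean count of at least 50. Leaving out single libraries gave -0.13 to 0.175 for P4HA2, -1.02 to 0.49 for LOX, -1.22 to 0.025 for LOXL1 and -0.30 to 0.56 for LOXL2. With BHB against control the ranges were -0.248 to 0.0892 for P4HA2, -0.18 to 0.0041 for PLOD3 and -0.22 to 0.64 for LOXL2. Between the low glucose media P4HA3 turned to -0.13 with the replicate block, and the ranges without single libraries were -0.12 to 0.19 for SERPINH1, -0.214 to 0.0596 for P4HA1, -0.256 to 0.0741 for P4HA2, -0.43 to 0.94 for P4HA3, -0.19 to 0.32 for PLOD1, -0.0404 to 0.132 for PLOD3 and -0.35 to 0.52 for LOXL2. The cause of these changes was not tested. LOX and LOXL1 had the lowest counts of the 10, down to 25 and 44 in a library.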
